A study of Drosophila melanogaster with 3 samples.

Results

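The Osiris and Tweedle genes are insect gene families whose members lie side by side in tandem clusters and whose products serve the cuticle, the chitin-containing coat that the epidermis secretes. All protein-coding genes whose symbol is Osi followed by a number, or starts with Twdl, were taken as members. This gave 25 Osiris genes and 25 Tweedle genes, together 50 of the 13945 protein-coding genes annotated on the chromosome arms that carry peaks. Osi10a and Osi10b count as separate members. A peak was assigned to a member when its summit lay within 1 kb of one of the member's transcription start sites (TSSs) or when the member had the nearest TSS of all protein-coding genes.

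Blimp-1 is a zinc finger transcription factor, homologous to mammalian PRDM1. It is known in the fly as an ecdysone-induced factor that times the expression of ftz-f1, and it is needed for the tracheal system and the cuticle of the embryo. Osiris proteins carry a signal peptide and a conserved domain of unknown function, and several act in endosomal trafficking in cells that secrete cuticle. Tweedle proteins are secreted structural proteins of the cuticle, and dominant mutations of TwdlD or Tubby (Tb) make larvae and pupae short and stout.

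Binding was measured by chromatin immunoprecipitation and sequencing (ChIP-seq) in whole Drosophila melanogaster embryos aged 10 to 12 h of a transgenic Blimp-1-GFP line, which stably expresses Blimp-1 fused at its C-terminal end to GFP. Chromatin was sonicated to 200 to 800 bp. The sample descriptions name an antibody against GFP, whereas the antibody label reads Blimp-1, so the labels do not settle whether untagged Blimp-1 could also have been precipitated. There is 1 group, with 3 biological replicates, and all of them carry the tagged protein. Whole embryos mix all cell types, so a peak cannot be placed in a tissue, and the sources used here do not state whether the endogenous Blimp-1 gene was intact.

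The authors deposited a list of 9515 peaks selected for their agreement between replicates by the irreproducible discovery rate (IDR; the IDR-thresholded list), a list of 30000 peaks called on the pooled replicates, and 30000 peaks for each replicate. Rank 1 is the peak of highest signal value, a strength given by the authors on a scale that the sources used here do not define. All 9515 IDR-thresholded peaks were the 9515 strongest of the pooled list, with signal values from 208.1 to 25918. A peak was followed into a replicate by the nearest summit within 100 bp. Depth is unknown, as read counts are not part of the lists, and the replicates were called against a shared control. A peak near a gene does not show that Blimp-1 acts on that gene.

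The sequences under some of the summits are shown first, several of them chosen because they hold the Blimp-1 site. The site AGYGAAAG, where Y is C or T, and the overlapping word GAAAGTGA were searched on both strands within 50 bp of each summit, and their matches are in capitals. AGYGAAAG was found at 11 of the 46 summits assigned to Osiris genes and 1 of the 5 assigned to Tweedle genes, against 6.31% of all IDR-thresholded peaks. Each sequence is read 5′ to 3′ on the strand of the named gene, from the Release 6 (dm6) assembly. The 3 members with the strongest peaks are Osi17 (chr3R:6311831-6311860, plus strand, 30 bases around the site of the rank 130 peak), TwdlE (chr2L:7861879-7861979, minus strand, rank 241) and Osi6 (chr3R:6231566-6231666, plus strand, rank 244). Osi24 (chr3R:6203104-6203204, rank 389) is shown as a strong peak with neither word. Osi5 (chr3R:6227147-6227247, rank 464), Osi7 (chr3R:6245118-6245218, rank 872) and Osi16 (chr3R:6304988-6305088, rank 6617) are shown for their sites at strong and weak peaks, and TwdlT (chr3R:27048717-27048817, rank 3573) as the Tweedle peak with a site. These last 5 are on the plus strand.
Osi17: caagcgtaaaaAGTGAAAGacacaacggat
TwdlE: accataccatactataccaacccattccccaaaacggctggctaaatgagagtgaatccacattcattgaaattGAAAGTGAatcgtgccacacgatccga
Osi6: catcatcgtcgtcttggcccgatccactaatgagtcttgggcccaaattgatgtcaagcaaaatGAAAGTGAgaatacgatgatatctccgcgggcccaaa
Osi24: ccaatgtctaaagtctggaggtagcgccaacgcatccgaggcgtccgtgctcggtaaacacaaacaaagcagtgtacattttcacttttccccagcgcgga
Osi5: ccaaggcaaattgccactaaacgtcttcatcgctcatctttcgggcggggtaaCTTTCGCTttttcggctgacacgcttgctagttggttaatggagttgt
Osi7: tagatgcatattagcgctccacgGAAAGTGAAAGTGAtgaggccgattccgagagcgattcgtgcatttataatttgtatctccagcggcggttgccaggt
Osi16: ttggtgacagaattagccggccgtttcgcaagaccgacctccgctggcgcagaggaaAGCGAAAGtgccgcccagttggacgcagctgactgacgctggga
TwdlT: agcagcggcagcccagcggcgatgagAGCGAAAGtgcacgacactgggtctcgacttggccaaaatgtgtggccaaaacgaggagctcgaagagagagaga
The Osi17 sequence holds AGTGAAAG, and the Osi5 sequence holds AGCGAAAG on the opposite strand. In the Osi7 sequence GAAAGTGA and AGTGAAAG overlap in an unbroken run of capitals. TwdlE and Osi6, whose peaks are nearly equal in rank, both hold GAAAGTGA and not AGYGAAAG.

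More Osiris than Tweedle genes had a Blimp-1-GFP peak at a start site. Of the Osiris genes, 13 of 25 had an IDR-thresholded summit no more than 1 kb from a TSS (52%, exact 95% binomial interval 31.3 to 72.2%) and, of the Tweedle genes, 3 of 25 (12%, 2.55 to 31.2%), against 24.9% of all protein-coding genes. These intervals cover counting error only and treat genes as independent, which neighbours in a tandem cluster are not. All 13 Osiris genes lie in 1 tandem cluster on arm 3R, so the family share describes 1 locus. Osi21, Osi22 and Osi23, which lie outside it, had no summit within 1 kb in the IDR-thresholded or the pooled list. As the gene with the nearest TSS, 15 Osiris and 5 Tweedle genes owned a summit, against 29% of all protein-coding genes. In the whole pooled list, 20 Osiris and 7 Tweedle genes had a summit within 1 kb, against 38.1% of all. The contrast was smaller at strong peaks: among the strongest 4757 of the IDR-thresholded list, summits reached 6 Osiris genes (24%) and 3 Tweedle genes (12%), against 15.9% of all.

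The difference between the families was present in each replicate. Among the 9515 strongest peaks of replicates 1, 2 and 3, summits reached 13, 13 and 14 Osiris genes and 3, 4 and 3 Tweedle genes, with backgrounds of 24.4%, 25.9% and 28.2% of all protein-coding genes. The Osiris share was 53.3% ± 2.31 and the Tweedle share 13.3% ± 2.31 (SD, n = 3). The values of the families do not overlap, and the Osiris share was higher by 40, 36 and 44 percentage points. The mean difference of 40 ± 4 points (SD, n = 3) gave p = 0.25 in a two-sided exact sign-flip permutation test, the smallest p that 3 replicates allow. The replicates share a control and the same genome, so their spread leaves out the choice of genes. With the strongest 4757 peaks of each replicate, 8, 6 and 6 Osiris genes (32%, 24% and 24%) were reached. Tweedle genes numbered 3, 3 and 3 (12% each time). The shares of all protein-coding genes were 15.7%, 15.8% and 17.4%. The mean difference between the families was 14.7 points (exact sign-flip p = 0.25).

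**Figure D1:**
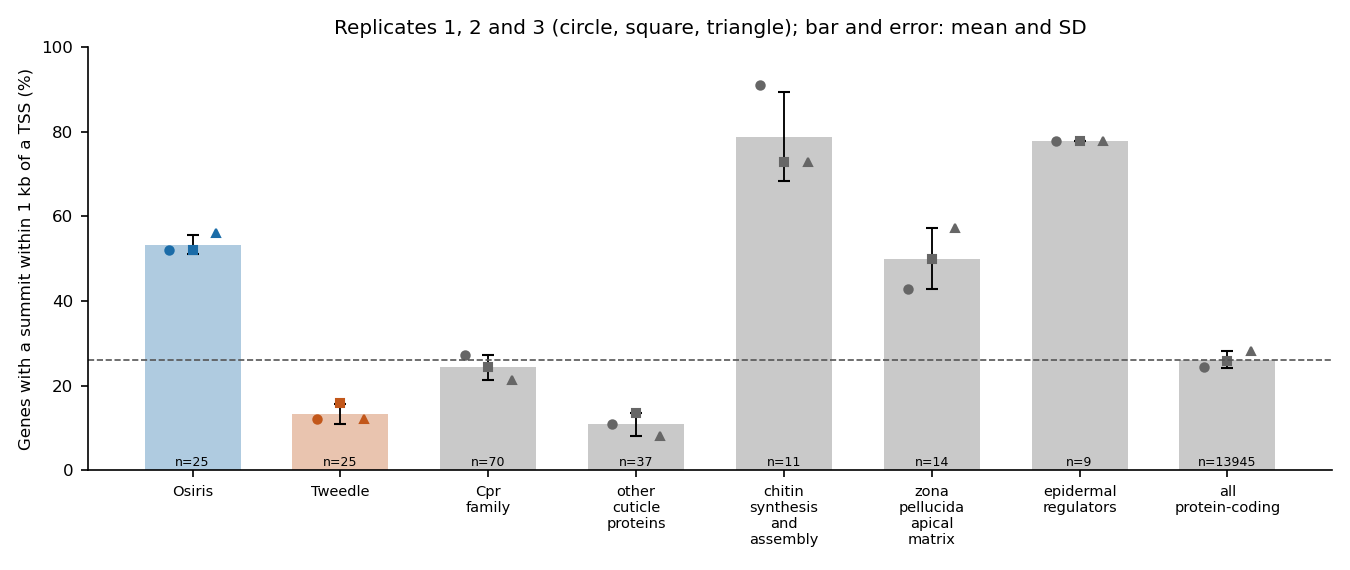
Share of genes (%, y axis) with a summit within 1 kb of a TSS among the 9515 strongest peaks of each replicate, for the families, 5 lists of other genes and all protein-coding genes (x axis). Points are replicates 1, 2 and 3, bars and error bars are the mean and SD, and the dashed line is the mean over all protein-coding genes; every Osiris point lies above the line and every Tweedle point below it.

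Among Osiris genes, the strongest start-site peak was at Osi17, the longest protein of the family with 749 residues. Its summit lay 69 bp downstream of a TSS, with a signal of 4170. It ranked 166, 115 and 113 in replicates 1, 2 and 3 (mean 131.3 ± 30.04, SD, n = 3), so each replicate placed it near the top of its 30000 peaks. Osi17 has 2 annotated TSSs, and further summits lay 273 bp downstream of a TSS (rank 3235) and 21 bp downstream of a TSS (rank 5490).

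Osi2 and Osi5 followed. The Osi2 summit lay 6 bp upstream of a TSS, with rank 438 and replicate ranks 464, 369 and 452. The Osi5 summit lay 315 bp upstream, with rank 464 and replicate ranks 426, 507 and 496. Their replicate ranks overlap, so the order of the pair is not resolved, while all of them lie below those of Osi17. Osi5 encodes the shortest Osiris protein, with 201 residues.

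The next start-site peaks were those of Osi15, Osi18 and Osi24. The Osi15 summit 560 bp upstream ranked 1643 (replicates 1557, 1885 and 1605), and the gene had further summits at ranks 3707 and 7432. The Osi18 summit 293 bp upstream ranked 2933 (replicates 3883, 2777 and 2324). The Osi24 summit 225 bp upstream ranked 3615 (replicates 5541, 3046 and 3078). The ranges of Osi18 and Osi24 overlap, although Osi18 ranked above Osi24 in every replicate. The range of Osi15 lies above both. Osi15 has been described with Osi9 and Osi19 in the maturation of tracheal tubes.

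The other 7 Osiris genes with a start-site peak were Osi20 (rank 4796, 136 bp upstream), Osi14 (rank 5025, 383 bp downstream), Osi6 (rank 5147, 622 bp upstream), Osi7 (rank 5596, 6 bp downstream), Osi16 (rank 6617, 209 bp upstream), Osi3 (rank 7253, 340 bp upstream) and Osi8 (rank 8426, 488 bp upstream). These lie in the weaker part of the list. The Osi7 start-site peak varied most among these: it ranked 3721 in replicate 1, 11598 in replicate 2 and 15462 in replicate 3. It was among the 9515 strongest peaks in replicate 1 and in neither of the others. The Osi16 summit also lies within 1 kb of the TSS of CG46396, so that peak is shared.

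Osi13 and Osi19 owned summits as the nearest gene, but none within 1 kb. The Osi13 summit of rank 1332 lay 2500 bp downstream of its TSS, and that of rank 3337 lay 2701 bp downstream. The Osi19 summits lay 2342 bp upstream (rank 3075) and 2225 bp downstream (rank 4115). The remaining 10 Osiris genes had no IDR-thresholded summit by either criterion: Osi1, Osi4, Osi9, Osi10a, Osi10b, Osi11, Osi12, Osi21, Osi22 and Osi23. Osi23, required for the nanopores in the cuticle of olfactory bristles, and Osi21, which acts in endolysosomal trafficking in photoreceptors, are among these. Both lie outside the cluster, as does Osi22.

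Several genes missing from the IDR-thresholded list had a weaker peak in the pooled list. This held for 7 of the 12 Osiris genes without a start-site peak (58.3%), against 17.7% of all protein-coding genes without one. It held for 4 of the 22 Tweedle genes (18.2%), a share at this background. The strongest of these pooled peaks ranked 11039 at Osi9, 11148 at Osi4, 13056 at Osi13, 14163 at Osi19, 14805 at Osi10a, 20976 at Osi12 and 23426 at Osi11. Only Osi1, Osi10b, Osi21, Osi22 and Osi23 had no summit within 1 kb in the pooled list. At the edge of the 1 kb limit, the Osi15 summit 923 bp downstream was inside it, and an Osi24 summit 1070 bp downstream and the TwdlE summit 1090 bp upstream were outside it.

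Strong Osiris peaks also lay away from start sites. The strongest of these was 3092 bp upstream of Osi6, with rank 244 and replicate ranks 226, 253 and 248, a spread narrower than that of most peaks described here (242 ± 14.4, SD, n = 3). An intronic summit 4343 bp downstream of the Osi24 TSS ranked 389 (replicates 358, 352 and 539). Further distal summits were nearest to Osi6 (ranks 631 and 970), Osi5 (rank 685) and Osi7 (rank 872). Counted by nearest TSS, Osi7 owned 8 summits and Osi6 owned 7, more than any other member, although the start-site peaks of both are weak. Of the 46 summits assigned to Osiris genes, 19 were within 1 kb, and 24 lay upstream and 22 downstream of the nearest TSS.

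**Figure D2:**
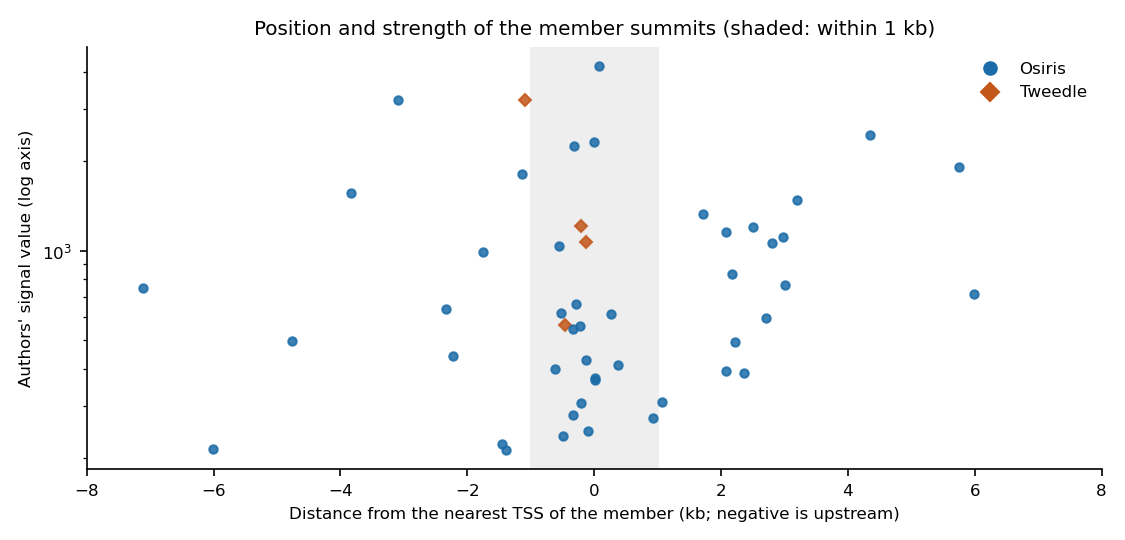
Distance of each summit from the nearest TSS of its Osiris (blue circles) or Tweedle (orange diamonds) gene (kb, x axis) against the authors' signal value (log axis, y axis). The shaded band is the 1 kb limit; strong Osiris summits lie inside and outside it, and the TwdlM summit 25082 bp upstream is outside the range plotted.

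The Tweedle family had 5 summits in all, 1 at each of 5 genes. The strongest was at TwdlE, 1090 bp upstream in intergenic DNA of arm 2L, with a signal of 3206 and rank 241. Its replicate ranks were 193, 236 and 347 (259 ± 79.5, SD, n = 3). These overlap the ranks of the Osi6 distal peak and lie below those of Osi17, so the best Tweedle peak was close in rank to the strongest distal Osiris peak. TwdlE encodes the shortest Tweedle protein, with 196 residues.

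Twdlbeta and TwdlG carried the strongest Tweedle peaks within 1 kb. The Twdlbeta summit, 203 bp upstream on arm 2R, had a signal of 1209 and ranked 1314 (replicates 1258, 1414 and 1433), and the TSS of CG42531 is also within 1 kb of it. The TwdlG summit lay 132 bp upstream of one of its 3 TSSs, inside the annotated gene, with a signal of 1070 and rank 1578 (replicates 1521, 1526 and 1963). In every replicate Twdlbeta ranked above TwdlG.

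TwdlT and TwdlM completed the Tweedle peaks. The TwdlT summit 453 bp upstream ranked 3573 (replicates 3167, 3505 and 4634) and lies in an intron of RYa-R, which encodes a receptor for RYamide neuropeptides. The TwdlM summit, rank 5390, was assigned by nearest TSS over 25082 bp and lies in an intron of scrib, an epithelial polarity gene. It ranked 3465 in replicate 1 and 8549 in replicate 3, and replicate 2 had no summit within 100 bp, so it is the Tweedle peak with the least agreement. TwdlO, TwdlN, TwdlH and TwdlE had weaker pooled summits within 1 kb, at ranks 13022, 20398, 29439 and 21700. The other 18 Tweedle genes, TwdlD among them, had none within 1 kb in the pooled list.

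Tb, formerly TwdlA, does not match the naming rule and was read apart. It lies at chr3R:26656440-26657531 and had 0 summits within 1 kb in the IDR-thresholded list and 0 in the pooled list.

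**Figure D3:**
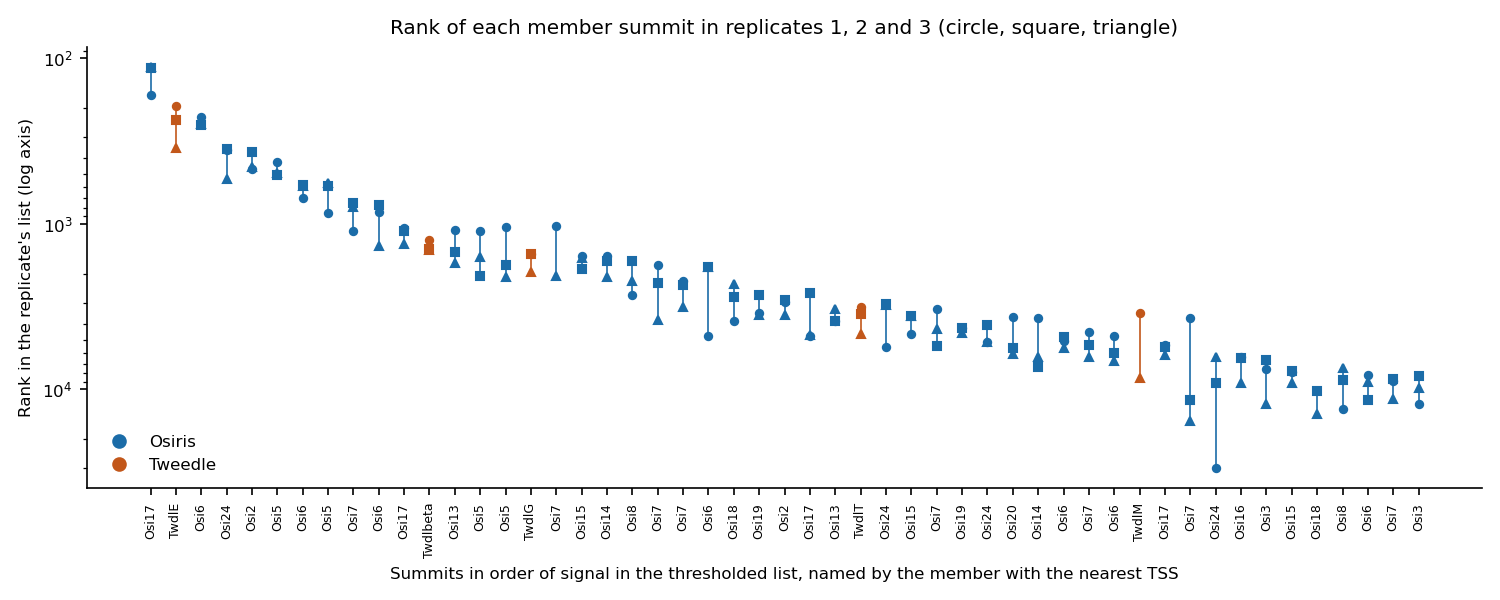
Rank of each member summit in the lists of replicates 1, 2 and 3 (circle, square and triangle; log axis, strongest at the top), in order of signal in the IDR-thresholded list (x axis, named by the gene with the nearest TSS). The ranks of Osi17 are the highest, and wide spreads appear at weak peaks of Osi7 and Osi24; a missing symbol means that no summit lay within 100 bp.

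The same contrast was read over whole clusters, of which the Osiris one holds all 13 Osiris genes with a start-site peak. A cluster was taken as at least 3 members on an arm with no gap over 50 kb between neighbours. The Osiris cluster, chr3R:6173549-6341424, holds 22 members over 167876 bp, 20 of them on the plus strand. It contained 47 IDR-thresholded summits in 38 deposited intervals, or 2.80 summits per 10 kb, against 0.693 per 10 kb on arm 3R. The strongest 9515 peaks of the replicates gave 3.16, 3.04 and 3.34 summits per 10 kb (3.18 ± 0.1499, SD, n = 3). Of 788 windows of the same width on the 5 large arms, 3 (0.381%) held at least 47 summits, the median was 11 and the range 0 to 57.

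Of the 3 Tweedle clusters, 2 held no thresholded summit and 1 held a single one. The largest, TwdlM to TwdlD at chr3R:26619118-26641054, packs 12 genes into 21937 bp and had 0 summits, with 0, 0.456 and 0 per 10 kb in replicates 1, 2 and 3 and 3 pooled summits. Windows of its width were without a summit in 46.9% of cases, so an empty window of this size is common. The cluster from TwdlX to Twdlalpha, chrX:16731091-16744365, with 4 genes in 13275 bp, had 0 IDR-thresholded and 0 pooled summits, and 57.8% of windows of its width were also empty. The cluster from TwdlF to TwdlV, chr3R:4247020-4255833, with 3 genes in 8814 bp, held the TwdlG summit alone. This is 1.13 summits per 10 kb (1.13, 2.27 and 1.13 in the replicates), above the density of arm 3R, although it rests on 1 summit, and 33.9% of windows of its width held at least 1. The Tweedle clusters are shorter than the Osiris cluster, and the low counts in them are therefore less precise.

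**Figure D4:**
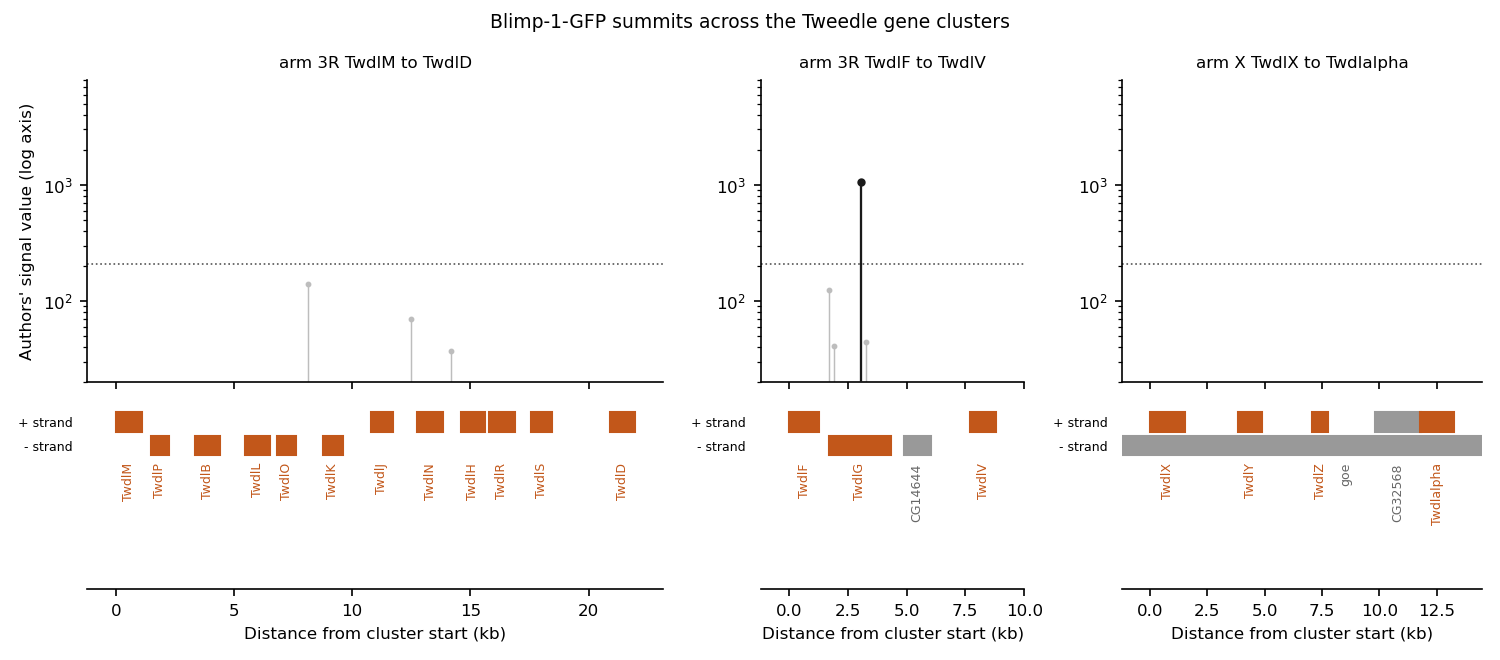
Summits across the 3 Tweedle clusters, by distance from the start of each cluster (kb, x axis) and the authors' signal value (log axis, y axis), with Tweedle genes in orange and other protein-coding genes in grey below. Black marks IDR-thresholded summits, light grey weaker pooled summits, and the dotted line the lowest thresholded signal; the only summit above the line is the one at TwdlG.

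Summits were not spread evenly through the Osiris cluster. Of the 47 summits, 13 lay inside a member gene and 34 did not, and 13 of the 21 stretches between neighbouring members held at least 1. The stretch between Osi6 and Osi7, 11812 bp, held 7 summits with a best rank of 631, and that between Osi5 and Osi6, 5879 bp, held 5 with a best rank of 244. The stretch between Osi16 and Osi17, 5405 bp, held 0 IDR-thresholded and 0 pooled summits, next to the strongest peak of the cluster at Osi17. The median distance between neighbouring summits was 1864.5 bp.

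A long interval in the middle of the cluster was free of thresholded peaks. It runs for 36888 bp between summits at positions 6257349 and 6294237 and holds Osi9, Osi10a, Osi10b, Osi11, Osi12 and Osi13. Divided there, after the values had been seen, the cluster had 29 summits from Osi1 to Osi8 (3.49 per 10 kb), 0 from Osi9 to Osi12 in 22285 bp, and 17 from Osi13 to Osi20 (3.42 per 10 kb). The replicates gave 33, 33 and 35 summits in the stretch from Osi1 to Osi8, 0, 0 and 2 from Osi9 to Osi12, and 18, 16 and 17 from Osi13 to Osi20. On the large arms, 46.9% of windows of 21937 bp, close to the 22285 bp from Osi9 to Osi12, held no thresholded summit. An empty stretch of that length is therefore common, and no such share is given for the 36888 bp interval. The middle stretch was not without signal: it held 15 pooled summits, the strongest at rank 9766, which is just under the threshold. It also held 6 matches to AGYGAAAG.

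**Figure D5:**
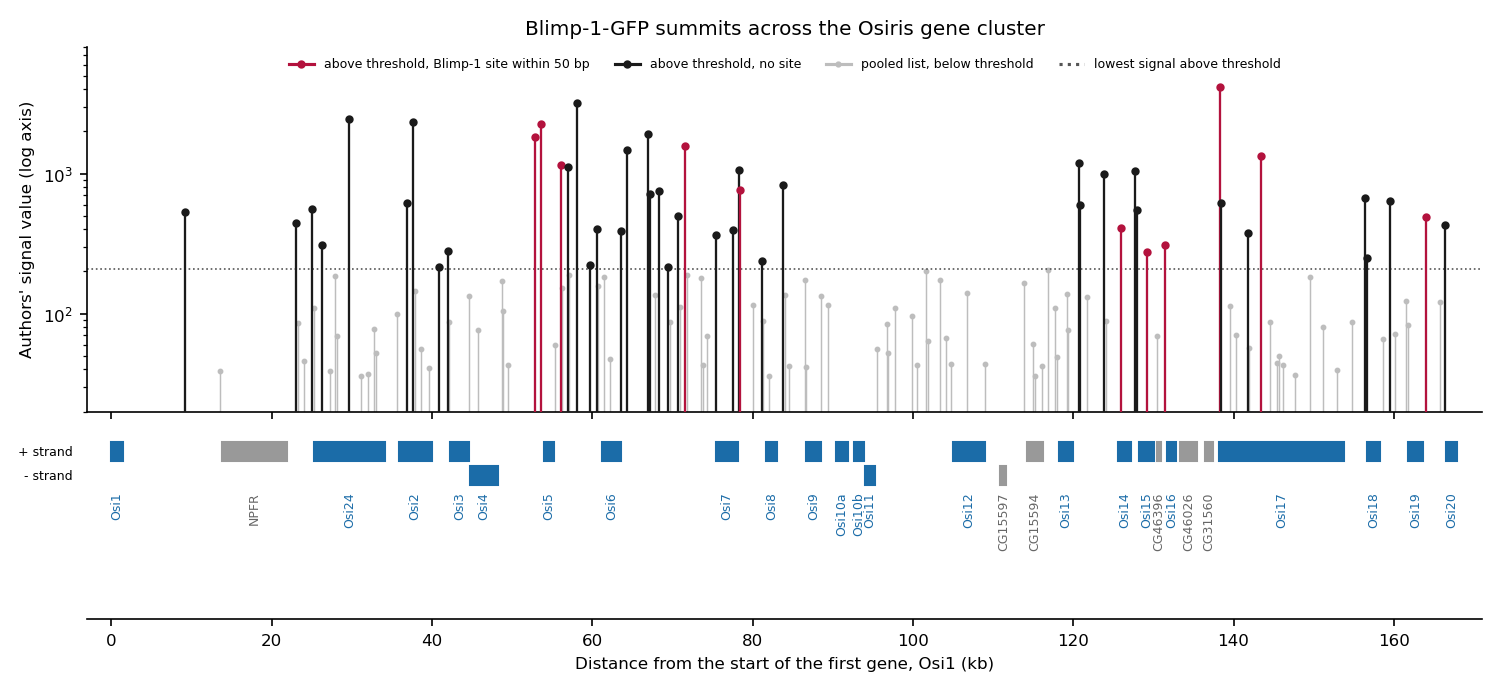
Summits across the Osiris cluster, by distance from the start of Osi1 (kb, x axis) and the authors' signal value (log axis, y axis), with Osiris genes in blue and other protein-coding genes in grey below. Red marks IDR-thresholded summits with AGYGAAAG within 50 bp, black those without it, light grey weaker pooled summits, and the dotted line the lowest thresholded signal; from Osi9 to Osi12 all summits lie under the line.

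The cluster also holds 6 protein-coding genes that are no members. Of these, 1 had a summit within 1 kb and 1 was the nearest gene of a summit. The shares of all protein-coding genes were 24.9% and 29%, and with 6 genes no difference was tested. NPFR, the receptor of neuropeptide F, was nearest to 1 summit (rank 3790), and CG46396 shared the Osi16 summit. CG15597, CG15594, CG46026 and CG31560 had none within 1 kb and were nearest to none. The 46 other summits of the cluster were thus nearest to an Osiris TSS, in a span with 22 Osiris genes and 6 others.

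The Osiris peaks differed from the list as a whole in several measures, none of them tested. Their median rank was 3235 against 4758, and 17.0% were among the strongest 951 peaks, against 10.0%. Their median width was 584 bp against 357 bp counted per summit, and 452 bp against 348 bp counted once for each of the 38 and 9157 deposited intervals. The share within 1 kb of a protein-coding TSS was 40.4%, close to the 37.5% of all peaks. Intergenic summits made up 72.3% against 32.6%, and intronic summits 14.9% against 56.0%. The Osiris genes are short, with a median length of 1611 bp against 2166 bp for all protein-coding genes, and Tweedle genes are shorter, at 1088 bp. Within 50 bp of the Osiris cluster summits, the median GC content was 45.5%, compared with 34.7% for the whole list, while the cluster as a whole (42.5%) had nearly the GC content of arm 3R (42.6%).

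Replicates agreed on the Osiris peaks somewhat more than on the list as a whole. All peaks of this list were selected for agreement between replicates, so high agreement is built in. Of the 47 cluster summits, 38 (80.9%) matched a summit among the 9515 strongest of all 3 replicates, against 69.9% of all IDR-thresholded peaks, and 45 (95.7%) matched in all 3 full lists, against 91.4%. Spearman correlations of ranks across the matched cluster summits were 0.886 (n = 45) for replicates 1 and 2, 0.870 (n = 46) for 1 and 3, and 0.963 (n = 46) for 2 and 3. Across all IDR-thresholded peaks they were 0.851, 0.826 and 0.897. These are descriptions over peaks of shared libraries and a shared control. The cluster summits were also stronger, with a median rank of 3235 against 4758, and agreement at equal strength was not tested. The exceptions were the Osi18 summit 90 bp upstream, unmatched in replicate 1, and an Osi7 summit of rank 1593, unmatched in replicate 2. The Osi24 summit 1070 bp downstream ranked 29906, 9197 and 6337.

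The Blimp-1 site was more frequent at Osiris summits than in the list as a whole. AGYGAAAG lay within 50 bp of 11 of the 47 cluster summits (23.4%, exact 95% binomial interval 12.3 to 38.0%), against 6.31% of all IDR-thresholded peaks. The interval covers counting error only and treats summits as independent. Neighbours at 1 locus are not, and the 47 summits lie in 38 deposited intervals. An equally wide flanking window, centred 500 bp to the right of each summit, held AGYGAAAG at 0 of the cluster summits, and at 0.956% of all. Among the strongest peaks of replicates 1, 2 and 3 the share was 20.8%, 19.6% and 19.6%, above the 5.95% ± 0.819 (SD, n = 3) of all peaks. The site was present both within 1 kb of a TSS (5 summits: Osi17, Osi5, Osi14, Osi16 and Osi15) and farther away (6 summits). It was absent from the Osi2 summit, so a peak of similar strength to Osi5 lacked it. Among the Tweedle summits, TwdlT alone had AGYGAAAG.

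The word GAAAGTGA, which overlaps the site in sequence, was found at 8 cluster summits (17.0%, against 5.42% of all). Either word was present at 18 of 47 (38.3%, against 10.2%), and both at 1. Among the Tweedle summits, GAAAGTGA was present at TwdlE alone. The GAGA factor word GAGAG was found at 9 cluster summits (19.1%, against 13.1%), and ATGCAAAT at 3 (6.38%, against 1.89%). The words TATCGATA and AACCGGTT were found at 0, against 0.578% and 0.116% of all peaks, shares at which fewer than 1 match would be counted among 47 summits.

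Most copies of the site in the Osiris cluster had no summit over them. The cluster DNA holds 33 matches to AGYGAAAG, 26 of the form AGTGAAAG and 7 of the form AGCGAAAG. The word was denser there, at 1.97 matches per 10 kb against 1.095 on arm 3R. How much of the higher share of cluster summits with AGYGAAAG goes with this density of matches was not tested. Of the cluster matches, 11 lay within 50 bp of a thresholded summit (33.3%, exact 95% binomial interval 18.0 to 51.8%), against 4.33% of 14585 matches on the 5 large arms. The interval treats neighbouring matches as independent, which they are not. Summits are themselves denser in the cluster, at 2.80 per 10 kb against 0.718 on these arms. How much of the difference in shares goes with this density was not tested. The Tweedle clusters hold 2 (TwdlM to TwdlD), 1 (TwdlF to TwdlV) and 0 (TwdlX to Twdlalpha) matches, none of them at a summit.

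A TATA box word was frequent at the promoters of both families. TATAAA, the core of the TATA box, occurred on the gene's strand in the 100 bp before a TSS of 14 of 25 Osiris genes (56%) and 16 of 25 Tweedle genes (64%), against 18.1% of all protein-coding genes. Among Osiris genes it was present at 8 of the 13 with a start-site peak and 6 of the 12 without. Among Tweedle genes it was present at 2 of 3 and 14 of 22. These differences were not tested.

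The families were set beside other gene groups of the cuticle and beside the 24.9% of all protein-coding genes with a summit within 1 kb. Of 70 Cpr genes, which encode cuticle proteins with a chitin-binding consensus, 17 (24.3%) had one, a share at this background and above the 12% of Tweedle genes, with the strongest at Cpr97Eb (rank 1209). Of 37 other cuticle protein genes, Tb among them, 4 (10.8%) had one, a share near that of the Tweedle genes, the strongest at Edg84A (rank 1785). The Osiris share lay near that of the zona pellucida proteins of the apical matrix, 7 of 14 (50%), with the strongest peak at neo (rank 329). Chitin synthesis and assembly genes reached 8 of 11 (72.7%), led by knk (rank 80), which organises chitin. A hand-picked list of genes known from the epidermis, mostly regulators, reached 7 of 9 (77.8%), led by ftz-f1 (rank 32). It includes Blimp-1 itself and sha. Most of these lists are small, all were chosen with earlier results of these data known, and no difference between them was tested.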

How the data were processed

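Blimp-1-GFP ChIP-seq peak lists of 3 replicates of 1 group were analysed. The authors aligned the reads to dm6 and used 1 control alignment for all replicates, per the deposited notes. Which aligner, caller and IDR cutoff were used is not given in the sources used here. Peaks were ordered by the authors' signal value, deposited per peak, and the summit offset, given in bp in the same lists, gave the summit position. Signal was used only to rank peaks within a list. An age label that does not hold an age was not used.

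Gene models came from Ensembl release 115 and sequence from the RefSeq Release 6 assembly; coordinates are 1-based. Every annotated transcript start counted as a TSS. Calculations used Python 3.11.15, NumPy 2.4.6, SciPy 1.17.1 and Matplotlib 3.10.9, and the counting steps were tested on simulated data. Peak lists hold no counts, so the depth is unknown and no count model was used.

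All members are named. Full values were planned for the 5 strongest peaks of each family and for cluster peaks matched in all 3 replicates, up to 20. Other genes are named where they lie in a cluster, own the TSS nearest to a peak there or within 1 kb of it, have an intron over a member's peak, or lead a comparison list. Members, lists and words were chosen with earlier results of these data known. Alternatives were the distance to the TSS, the TSSs used, the peak list, the number of peaks per replicate, the matching distance, the cluster gap, the site window and mismatches, and leaving out each replicate. Sequences of arm 2R are not printed, and a sequence whose window touches an exon is limited to 30 bases.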

Additional observations from a re-analysis of the deposited data

How the results depend on the processing

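Across 17 results and 89 alternatives, 72 values counted as unchanged and 17 moved further than the limits set for them. The difference between the families had no limit of size and was judged by its direction alone. Its values of 14.7 and 60 percentage points, against 40, are therefore among the 72. No difference changed sign. No paired analysis was possible because there is only 1 group of samples; the difference between the families was taken within each replicate. With the whole pooled list, Osiris start-site genes rose to 20 and Tweedle to 7 (38.1% of all genes), Osiris density to 7.86 and TwdlM to TwdlD density to 1.37 summits per 10 kb, Cpr genes to 28, other cuticle genes to 10 and zona pellucida genes to 11. With the strongest 4757 peaks, 6 Osiris and 3 Tweedle genes were left (15.9% of all genes). With all peaks of each replicate the mean was 21 Osiris and 6 Tweedle genes, and no share of all genes is given for this setting. With the strongest 4757 of each it was 6.67 Osiris and 3 Tweedle genes, against a mean of 16.3% of all genes. This was a difference of 14.7 percentage points (an alternative chosen after seeing the data). A 20 kb gap gave an Osiris density of 3.09, and 1 summit per deposited interval, chosen after seeing the data, gave 2.26. With up to 1 mismatch, 30 Osiris cluster summits held the site, or 63.8% against 32.5% of all peaks. Within 500 bp, 8 Cpr and 2 other cuticle genes had a summit (20.5% of all genes), and within 2 kb, 8 other cuticle genes did (31.3% of all genes).

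To leave out a replicate, IDR-thresholded summits were kept if the full lists of the remaining replicates had a summit within 100 bp. The list itself still came from all 3 replicates, so these counts do not show what a list made without a replicate would hold. They were 13 Osiris and 3 Tweedle start-site genes each time, against 24%, 22.9% and 22.8% of all genes without replicates 1, 2 and 3. As nearest genes they numbered 15 and 4 to 5, and the means were 13 to 13.5 and 3 to 3.5 genes. The difference between the families ranged from 38 to 42 percentage points (exact sign-flip p = 0.5, the smallest that 2 replicates allow). In the list filtered as above, the Osiris density ranged from 2.68 to 2.74 and that of TwdlM to TwdlD stayed at 0. The mean rank of the Osi17 peak ranged from 114 to 140.5, and that of the Twdlbeta peak from 1336 to 1423.5.

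Neighbouring genes share peaks and replicates share a control, so the replicate spread does not cover either. The depth behind a list is unknown, so a gene without a peak was not detected at these thresholds and cannot be called unbound.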

Other observations

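The 3 windows with at least as many summits as the Osiris cluster all lie on arm 3L. Their counts were 57, 48 and 47, and the genes that owned most summits there were CG6163, CG44362 and Dyro, then CG13898, hng3 and CG13896, then dyl, CG33764 and Cip4. dyl encodes a zona pellucida protein of the apical matrix and is a member of the comparison list above. The next window, with 45 summits, overlaps the Osiris cluster by 130012 bp, and another window with 45 is led by Eip75B, an ecdysone-induced nuclear receptor gene. These windows were looked up after the counts had been seen.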
